A study of Mus musculus with 10 samples.

Results

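The muscarinic acetylcholine receptors are a family of 5 genes, Chrm1 to Chrm5, taken here by name from the 32531 gene rows of ribosome-bound RNA from mouse medial habenula. All 5 were present in the tables and all 5 passed the filter on low counts, with 4 to 2497 reads per library. The study compared the left with the right medial habenula of adult mice of the Chat-TRAP DW167 line, which carry a bacterial artificial chromosome transgene that places EGFP on the ribosomal protein Rpl10a in cells where the Chat sequences drive it. Both groups carry the same transgene and received no treatment named in the labels. Each side had 5 libraries, each a pull-down of tagged polysomes by EGFP antibodies, the method called TRAP (translating ribosome affinity purification). The labels give no sex, no strain background and no count or pooling of animals, and they do not say that libraries came from separate animals, so p-values measure the spread between these libraries, which may be partly technical.

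Muscarinic receptors are the receptors for acetylcholine that signal through G proteins, in contrast to the nicotinic receptors, which are ion channels. The receptors made by Chrm1, Chrm3 and Chrm5 couple to Gq, which activates phospholipase C and can close the M-type potassium channels. Those made by Chrm2 and Chrm4 couple to Gi and Go, which inhibit adenylyl cyclase, open GIRK potassium channels and, on cholinergic terminals elsewhere in the brain, restrain the release of acetylcholine. Neurons of the ventral medial habenula release acetylcholine onto the interpeduncular nucleus and are known above all for their nicotinic receptors.

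Libraries held 42488448 to 67942836 reads in genes. Levels are reads per 1000000 gene reads (CPM) with library sizes scaled by TMM factors, errors are SD over 5 libraries of a side unless another error is named, and a log2 fold change above 0 means a higher level on the left. The pull-downs carried medial habenular markers at high levels, with 10 of 10 markers measured and a summed level of 5221 to 10593 CPM. Markers of glia also varied, and each library's glial score is the mean log2 CPM of its astrocyte, oligodendrocyte, microglial, endothelial and mural markers. Libraries with the replicate numbers 1 and 5 had scores of -0.31 to 0.02, and the remaining 6 had scores of 1.86 to 3.63. Replicates 1 and 5 of a side were also alike in other genes. Their chi-square per degree of freedom, over genes with 100 to 500 reads in the pair, was 2.14 for the left pair and 1.28 for the right pair, against 6.71 to 49.7 for the other pairs within a side. A value of 1 would mean sampling noise alone, so these pairs, and the right one above all, came near to it. Whether replicates 1 and 5 of a side share RNA is not stated in the labels and was not tested. They were counted as separate libraries, although values above 1 do not show that their RNA was separate. If they share RNA, the tests that count 10 libraries rest on fewer independent ones. Side differences are also given without them or with them summed.

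In the GENCODE M21 annotation of GRCm38 (mm10), Chrm1 lies on chromosome 19 (8663789 to 8683587, plus strand) and Chrm2 on chromosome 6 (36388084 to 36528414, plus strand). Chrm3 lies on chromosome 13 (9875486 to 10360847, minus strand). Chromosome 2 holds Chrm4 (91927249 to 91928688, plus strand) and Chrm5 (112479171 to 112480769, minus strand). The models of Chrm4 and Chrm5 there are a single exon of 1440 and 1599 bases that hold almost nothing but the coding sequence, whereas RefSeq gives the same genes spans of 7647 and 57629 bases. The union of exons was 6487 bases for Chrm1, 6053 for Chrm2 and 6253 for Chrm3. Chrm2 shares 142 exonic bases with the antisense gene 9330158H04Rik and Chrm1 shares 329 with the small RNA gene Gm22820. Whether counting used strand is not stated in the labels or files. Without strand, the count of Chrm1 may include reads of Gm22820, which has no row of its own. The gene 9330158H04Rik has its own row, with 884 reads over all libraries. Without strand, reads in the bases it shares with Chrm2 may have been given to either gene or to neither.

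The coding sequences of the family are related, and the stretches they share exactly show how far reads could be confused between members. Aligned in pairs, they were 65.8% to 72.1% identical, with Chrm1 and Chrm5 the nearest pair and Chrm3 and Chrm4 the farthest. The longest identical run in each of 4 pairs is given below, 5′ to 3′ on the coding strand, because these are the bases where a read cannot tell the genes apart. Positions count from 1 at the first base of the start codon.
Chrm1 (1111 to 1139) and Chrm4 (1216 to 1244): ctgctggccttcatcctcacctggacacc
Chrm1 (169 to 191) and Chrm3 (295 to 317): aagacagtcaacaactacttcct
Chrm2 (1303 to 1325) and Chrm4 (1342 to 1364): atcaaccctgcctgctatgcact
Chrm2 (1181 to 1200) and Chrm3 (1490 to 1509): tggctttcatcatcacgtgg
The run of 29 bases shared by Chrm1 and Chrm4 was the longest in the 10 pairs, and the shortest of the 10 longest runs was 17 bases. The 4 printed runs are not the 4 longest. Chrm3 (296 to 317) and Chrm4 (188 to 209) share a run of 22 bases, which lies within the run printed for Chrm1 and Chrm3. The labels and files do not state the read length.

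Chrm1, the Gq-coupled M1 receptor of forebrain neurons, was the most abundant member in every library. It stood at 28.0, 36.3, 24.95, 26.7 and 29.3 CPM in left replicates 1 to 5 and at 32.2, 37.1, 22.7, 22.9 and 33.8 CPM in right replicates 1 to 5. Replicate 2 was highest on both sides, replicates 3 and 4 of the right were lowest, and the sides overlapped. The left mean was 29.0 ± 4.38 CPM and the right mean 29.7 ± 6.60 CPM. The log2 fold change was -0.03 (95% CI -0.41 to 0.34, edgeR quasi-likelihood test, adjusted p = 1), a difference smaller than the spread between libraries. Chrm1 was also the steadiest of the 5, with a 1.64-fold range over the 10 libraries. Its SD of log2 CPM, 0.26, was at percentile 32.7 of all tested genes, whose median was 0.36.

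Chrm3, the Gq-coupled M3 receptor, was the second most abundant by CPM on average. It stood at 5.42, 9.48, 9.10, 11.8 and 4.88 CPM in left replicates 1 to 5 and at 6.08, 5.83, 10.7, 8.77 and 5.16 CPM in right replicates 1 to 5. The values of replicates 1 and 5, 4.88 to 6.08 CPM, all lay at the low end, together with right replicate 2, and the other 5 libraries had 8.77 CPM or more. The sides overlapped, with means of 8.14 ± 2.92 and 7.32 ± 2.36 CPM. The log2 fold change was 0.15 (95% CI -0.50 to 0.81, edgeR adjusted p = 1).

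Chrm5, the Gq-coupled M5 receptor known from dopamine neurons of the midbrain, was scarce. It stood at 1.12, 1.62, 2.03, 2.01 and 1.46 CPM in left replicates 1 to 5, on 68 to 135 reads. On the right it stood at 1.16, 1.14, 2.35, 1.04 and 0.954 CPM in replicates 1 to 5, on 42 to 152 reads. Right replicate 3 had the highest value of all while the other 4 right libraries lay at or below 1.16 CPM, and 4 of the 5 left libraries exceeded those 4. The log2 fold change was 0.31 (95% CI -0.36 to 0.98, edgeR adjusted p = 1). Without right replicate 3 it was 0.62, with an unadjusted edgeR p of 0.0293 and an adjusted p of 1.

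**Figure D1:**
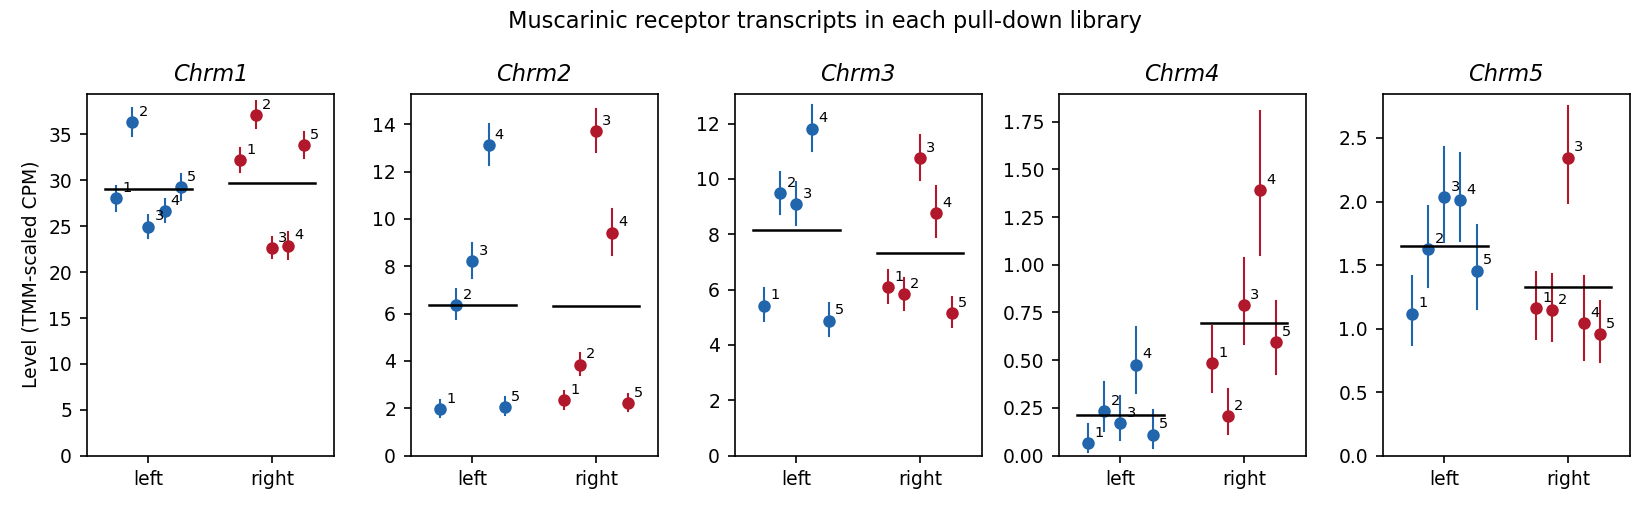
Level of each receptor (CPM with TMM-scaled library sizes, linear axis from 0) in the 5 left and 5 right libraries, numbered by replicate; vertical lines are exact 95% Poisson intervals, which cover counting error only, and horizontal lines are side means. Chrm2 and Chrm3 are low in replicates 1 and 5 of both sides, and Chrm4 ranges from 0.0657 to 1.39 CPM.

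Among the Gi-coupled members, Chrm2, whose M2 receptor is a known autoreceptor of cholinergic neurons, spread widely between libraries. It stood at 1.97, 6.37, 8.22, 13.1 and 2.06 CPM in left replicates 1 to 5 and at 2.34, 3.85, 13.7, 9.42 and 2.22 CPM in right replicates 1 to 5. Replicates 1 and 5 of both sides lay within 1.97 to 2.34 CPM, right replicate 2 was next, and the other 5 libraries had at least 6.37 CPM. That was a 6.95-fold range over the 10 libraries, and the SD of log2 CPM, 1.13, was at percentile 88.5 of tested genes. Counting error alone would give a coefficient of variation of 5.10% at its mean count, and the observed one was 72.6%. The sides did not differ beyond that spread, with means of 6.35 ± 4.66 and 6.31 ± 5.08 CPM and a log2 fold change of 0.01 (95% CI -1.47 to 1.49, edgeR adjusted p = 1). When the glial score was added to the model, the log2 fold change was 0.07 (95% CI -0.24 to 0.39).

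Chrm4, whose M4 receptor is best known from striatal neurons, was the scarcest member and had the largest side difference of the family. Its reads numbered 4, 15, 10, 32 and 6 in left replicates 1 to 5, which gave 0.0657, 0.234, 0.169, 0.477 and 0.111 CPM. In right replicates 1 to 5 there were 33, 14, 51, 56 and 40 reads, or 0.485, 0.208, 0.787, 1.39 and 0.597 CPM. Right replicate 2 lay among the left libraries and left replicate 4 among the lower right ones, so the sides overlapped, while in 4 of the 5 replicate numbers the right library was the higher. The left mean was 0.211 ± 0.162 CPM and the right mean 0.694 ± 0.443 CPM. The log2 fold change was -1.69 (SE 0.62, 95% CI -3.07 to -0.31) with an unadjusted edgeR p of 0.0211 and an adjusted p of 1, so the difference did not pass. A two-sided exact permutation test of log2 CPM over the 252 assignments of sides gave an unadjusted p of 0.0317 for this gene. The same permutation test gave an unadjusted p of 0.921 for Chrm1, 0.730 for Chrm3 and 0.222 for Chrm5, and the value for Chrm2 was higher still. It uses the same libraries as the edgeR fit and is not independent of it.

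The difference in Chrm4 kept its sign in all of the 22 alternatives that gave it a value, with log2 fold changes from -2.60 to -1.28. These alternatives reuse all or some of the same 10 libraries, so they are not independent. The alternative that only moved the threshold, to an adjusted p under 0.10, could not differ from the main fit. The difference was widest in replicates 1 and 5, where the left held 4 and 6 reads and the right 33 and 40. In those 4 libraries alone it was -2.60 (95% CI -3.45 to -1.76) with an edgeR adjusted p of 0.00998. In that comparison 12.8% of 15569 genes were called, 5.74% higher on the left and 7.06% higher on the right, and Chrm4 was the only member called, with Chrm1 next at -0.20 (adjusted p = 0.0520). That test takes its spread from replicates 1 and 5 of a side, and if these share RNA, its p-values and its 1992 calls measure technical spread. With replicates 1 and 5 of each side summed into 1 library, the log2 fold change of Chrm4 was -1.57 (95% CI -3.16 to 0.02), with an unadjusted edgeR p of 0.0523. In replicates 2 to 4 alone the log2 fold change of Chrm4 was -1.38 (95% CI -3.04 to 0.27), with an unadjusted edgeR p of 0.0908. Without right replicate 4, the library with the highest level, it was -1.28 with an unadjusted edgeR p of 0.0615.

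Between the sides, then, 0 of the 5 receptors passed, against 0% of the 16250 genes tested (0 called). At an unadjusted edgeR p under 0.05 there were 90 genes, Chrm4 among them. Evenly spread p-values would place a share of 0.05 of the 16250 genes there, and 90 is fewer. Having 0 genes called in this fit does not show that the sides are equal. DESeq2 and limma-voom also called 0 genes, with 273 and 2359 at an unadjusted p under 0.05. Log2 fold changes were above 0 for 3 of the 5 receptors and for 7520 of all tested genes, and the median of all genes was -0.01. In replicates 2 to 4 alone, where 0 of 16809 genes were called (edgeR, 72 at an unadjusted p under 0.05), the log2 fold changes of Chrm1, Chrm2, Chrm3 and Chrm5 were 0.09, 0.07, 0.28 and 0.34. The summed level of the 5 receptors was 45.4 ± 8.46 CPM in left libraries and 45.4 ± 3.59 CPM in right ones.

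**Figure D2:**
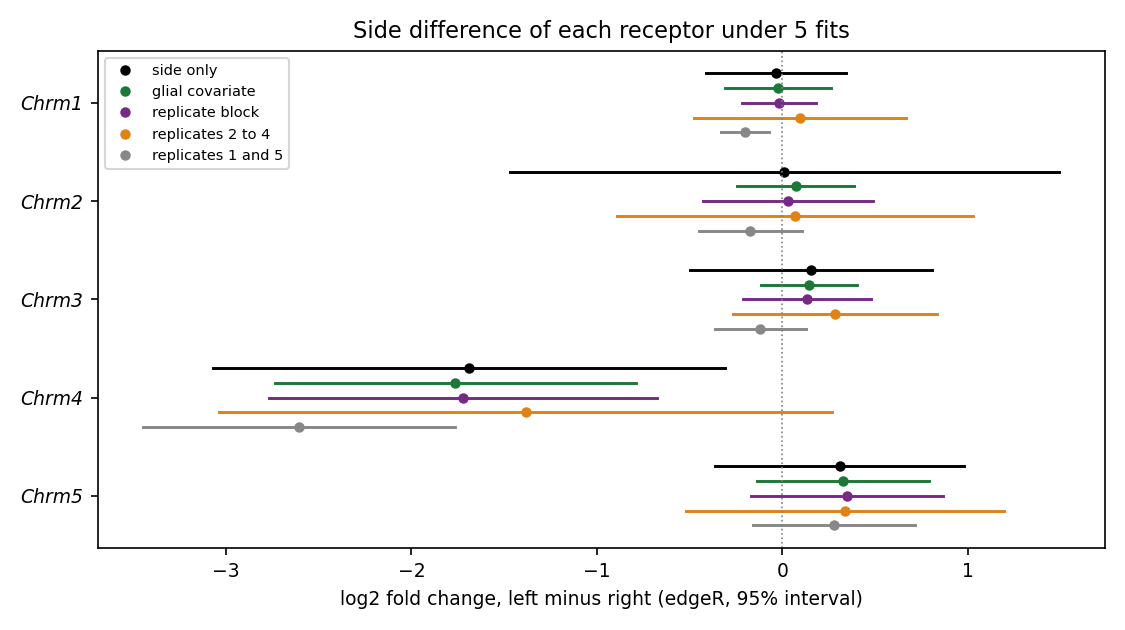
Log2 fold change of each receptor, left minus right, with its 95% interval, under 5 edgeR fits (colours). Intervals of Chrm1, Chrm3 and Chrm5 from the fit by side alone include 0, that of Chrm2 runs from -1.47 to 1.49, and those of Chrm4 lie below 0 in 4 of the 5 fits.

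The split of muscarinic reads between the receptors differed between libraries. Shares of reads take no account of length, and the exons used here ran from 1440 bases for Chrm4 to 6487 for Chrm1. The summed level ranged from 36.6 CPM in left replicate 1 to 54.1 CPM in left replicate 4. Reads of the Gq-coupled members were 94.4%, 87.8%, 81.1%, 74.8% and 94.2% of muscarinic reads in left replicates 1 to 5. On the right they were 93.3%, 91.6%, 71.1%, 75.2% and 93.4%. Replicates 1 and 5 were all at 93.3% or more, and replicates 3 and 4 of the right and replicate 4 of the left were lowest. Chrm1 alone held between 45.1% and 79.1% of muscarinic reads, Chrm3 between 12.1% and 21.8%, and Chrm2 between 5.20% and 27.3%. Chrm1 exceeded Chrm2 by 15.2-fold in CPM in right replicate 5 and by 1.65-fold in right replicate 3.

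**Figure D3:**
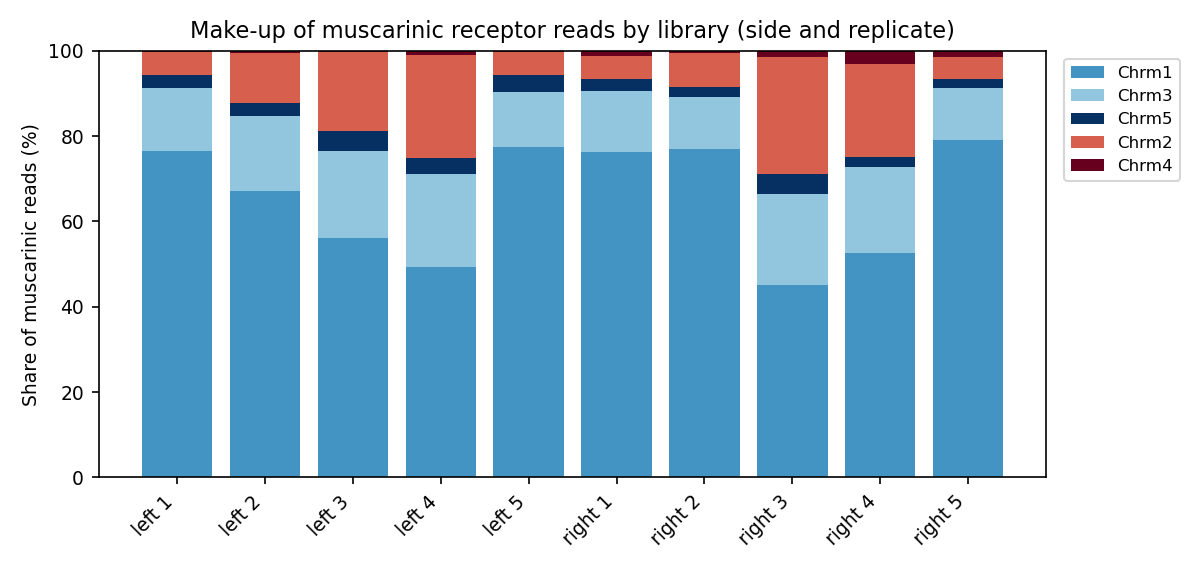
Share of all muscarinic receptor reads (%, stacked to 100) that fell on each receptor, in each of the 10 libraries; blue shades are Gq-coupled and red shades Gi-coupled members. The red part is smallest in replicates 1 and 5 of both sides and largest in right replicate 3, where the Gq-coupled share is 71.1%.

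Chrm2 ordered the libraries much as the markers of several other cell types did, glial and neuronal, and Chrm1 did not order them as the glial markers did. Of the 45 pairs that can be formed from 10 libraries, 44 were ordered by Chrm2 as by the glial score, against 39 for Chrm3, 32 for Chrm5, 31 for Chrm4 and 14 for Chrm1. Because replicates 1 and 5 stand apart, the same was counted within the other 6 libraries. There, 15 of 15 pairs had the same order by Chrm2 and by the glial score, 11 of 15 by each of Chrm3, Chrm4 and Chrm5, and 2 of 15 by Chrm1. The order by Chrm1 in those 6 libraries was that of the summed medial habenular markers in 15 of 15 pairs, whereas Chrm2 had 2 of 15. Over all 10 libraries the counts against these markers were 37 of 45 for Chrm1 and 7 of 45 for Chrm2. The order by Chrm2 was not particular to glia. Over all 10 libraries it was that of the thalamic markers in 42 of 45 pairs, the GABAergic markers in 41, the astrocyte markers in 41 and the hippocampal markers in 39. Within the 6 libraries the counts for the same lists were 14, 12, 13 and 10 of 15. Not all neuronal lists shared this order, since the lateral habenular markers had that of Chrm2 in 12 of 45 pairs, and in 9 of 15 within the 6 libraries. These counts describe libraries that share the total to which reads are scaled, and no test was made of them.

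Several kinds of marker moved with Chrm2, and their part in its level was not tested. In replicates 1 and 5 the summed astrocyte markers (15 of 15 measured) stood at 205 to 208 CPM and in the other 6 libraries at 577 to 2182.4 CPM. Oligodendrocyte markers (13 of 13) stood at 109 to 117 and 415 to 1796 CPM, and microglial markers (12 of 12) at 6.92 to 8.79 and 17.1 to 43.5 CPM. Endothelial and mural markers (14 of 14) stood at 5.19 to 8.65 and 21.1 to 70.5 CPM. Markers of GABAergic neurons (9 of 9) stood at 25.01 to 42.7 and 126 to 504 CPM, and thalamic markers (10 of 10) at 2181.8 to 2735 and 2952 to 3911 CPM. Zic1, the most abundant thalamic marker, did not share that split, with 1367 to 1909 CPM in replicates 1 and 5 and 1092 to 1713 CPM in the others. None of these markers was at 0 in all libraries. The list sums overlapped widely between sides, for example 205 to 2061 CPM in left and 207 to 2182.4 CPM in right libraries. In pull-downs of bulk tissue, fewer cells of a type and less RNA per cell cannot be told apart.

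**Figure D4:**
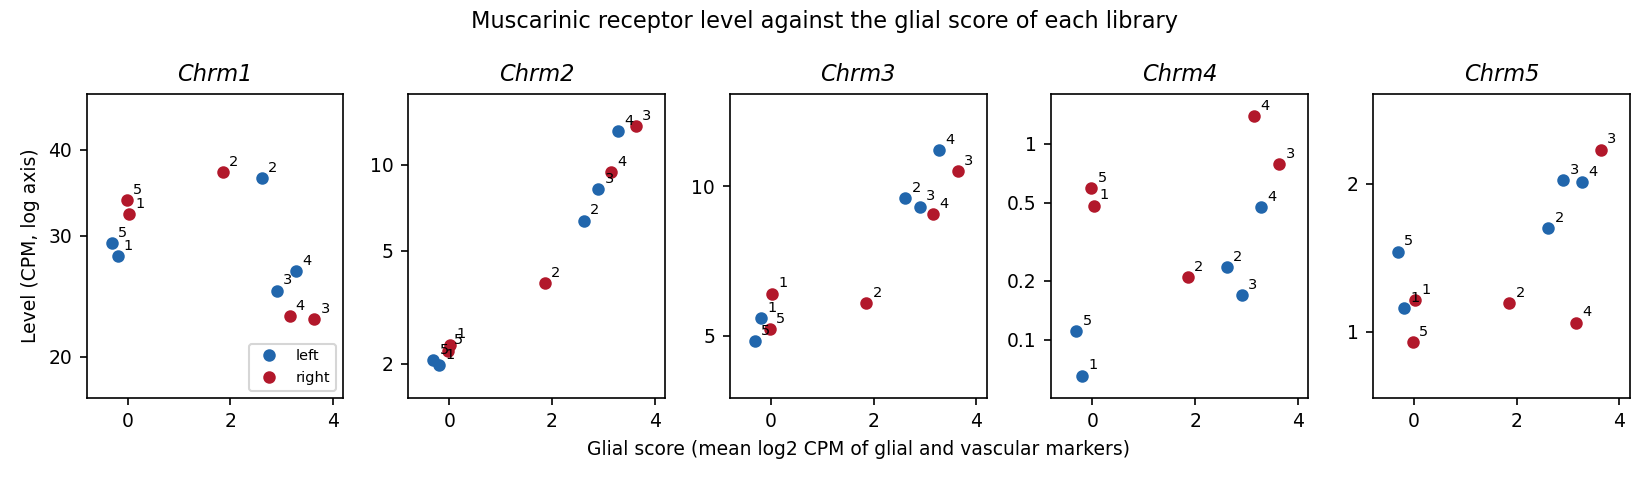
Level of each receptor (CPM, log axis) against the glial score of the library (mean log2 CPM of markers of astrocytes, oligodendrocytes, microglia and vessels), with left libraries in blue, right in red and replicate numbers beside the points. Chrm2 climbs from 1.97 to 13.7 CPM along the score, while Chrm1 is lowest, at 22.7 and 22.9 CPM, in right replicates 3 and 4.

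The genes with the library pattern nearest to each receptor were sought among the 13272 genes whose mean level reached 1 CPM. The measure was the root mean square over 10 libraries of the difference in log2 CPM after each gene was centred on its own mean. Nearest to Chrm1 were Cnnm2, B3gat1 and Taf5l, at 0.06, 0.06 and 0.07, where Chrm1 itself deviated from its mean by 0.25. Nearest to Chrm2 were Cachd1, which encodes a cell-surface protein related to calcium channel auxiliary subunits, the integrin subunit gene Itgav, and Csmd1, at 0.09, 0.12 and 0.13 against its own 1.07. Cachd1 ranged from 5.93 to 45.1 CPM. Nearest to Chrm3 were Flrt3, Mia3 and Npc1, at 0.11, 0.12 and 0.12 against its own 0.45. Nearest to Chrm5 were Adamts10, Gna12 and Pcdha2, at 0.16, 0.18 and 0.19 against its own 0.43. Within the family the nearest patterns were Chrm3 and Chrm5, at 0.32, and the farthest Chrm1 and Chrm4, at 1.25. Chrm4 had a mean below 1 CPM and was left out of the search.

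Chrm2 and Chrm4, the members with the widest spread between libraries, have upstream sequences in RefSeq's promoter table for GRCm38.p6, which matched 4 of the 5 receptors. Their bases before the start of every RefSeq model of the gene are shown, with matches to the motifs searched in capitals, so that both genes can be compared by sequence.
Chrm2, chr6:36387834-36387990, plus strand: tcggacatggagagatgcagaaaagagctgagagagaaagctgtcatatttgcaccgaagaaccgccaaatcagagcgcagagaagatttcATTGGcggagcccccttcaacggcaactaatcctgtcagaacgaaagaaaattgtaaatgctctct
Chrm4, chr2:91921939-91922188, plus strand: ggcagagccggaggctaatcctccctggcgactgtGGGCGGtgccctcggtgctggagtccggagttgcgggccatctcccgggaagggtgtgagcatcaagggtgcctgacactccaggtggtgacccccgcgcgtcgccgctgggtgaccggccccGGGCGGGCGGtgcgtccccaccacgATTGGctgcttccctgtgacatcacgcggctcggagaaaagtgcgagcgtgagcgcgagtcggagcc
The motifs searched, on both strands, were the GC box, whose letters are GGGCGG, the CCAAT box and the TATA box, spelled TATAAA. Also searched were the cyclic AMP element TGACGTCA and, as part of the element bound by the repressor REST, the letters TTCAGCACC. The window of 157 bases at Chrm2 held 1 reverse match to CCAAT, at bases 92 to 96, a motif found in 21.0% of 32851 promoter windows of that length. The window of 250 bases at Chrm4 held 3 matches to GGGCGG, of which those at bases 159 to 164 and 163 to 168 overlap, and 1 reverse match to CCAAT at bases 184 to 188. The GC box was in 32.7% of windows of 250 bases and the CCAAT box in 33.8%. G and C made up 46.5% of the Chrm2 window and 70.0% of the Chrm4 window. No match was found to the other motifs, which says only that these letters are not in these windows.

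Levels can be compared between the receptors only per length. As CPM per kilobase (RPKM) over the union of exons, Chrm1 stood at 4.53 ± 0.816 (SD, n = 10 libraries), Chrm3 at 1.24 ± 0.406, Chrm2 at 1.05 ± 0.759, Chrm5 at 0.937 ± 0.307 and Chrm4 at 0.320 ± 0.281. Chrm1 exceeded each other receptor in 10 of 10 libraries, by 3.79-fold over Chrm3 and 5.56-fold over Chrm2 as geometric means (two-sided exact sign-flip permutation test over libraries, adjusted p = 0.00391 over 10 pairs, raw p = 0.00195, the smallest possible). Chrm2 exceeded Chrm4 in 9 of 10 libraries by 3.56-fold (exact permutation, adjusted p = 0.00837). Chrm3 exceeded Chrm2 in 7 of 10 libraries by 1.47-fold (exact permutation, adjusted p = 0.0477), but that call was lost on leaving out any 1 of 7 libraries, left replicates 1, 2, 3 and 5 and right replicates 1, 2 and 5, with adjusted p of 0.0564 to 0.0955. Chrm5 and Chrm2 did not differ beyond the spread between libraries (5 of 10 libraries each way, mean log2 difference 0.15, exact permutation, adjusted p = 0.574).

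The distance of Chrm5 from Chrm2 and Chrm3 depends on the length used, since its gene model is hardly longer than its coding sequence. Over the coding sequence alone the arithmetic means of Chrm1, Chrm2, Chrm3, Chrm4 and Chrm5 were 21.3, 4.53, 4.38, 0.321 and 0.938 RPKM. By these means Chrm2 lay above Chrm3, and Chrm5 again lay between them and Chrm4. Over that length Chrm3 still exceeded Chrm2 by median (4.21 against 3.66 RPKM) and by a mean log2 difference of 0.26, which was not called. Chrm5 then lay below Chrm2 by a mean log2 difference of -1.96 (exact permutation, adjusted p = 0.00244). Reads of untranslated exons count for Chrm1, Chrm2 and Chrm3 in that measure, and no label or file header names the annotation behind the counts. Chrm1 was highest and Chrm4 lowest on average under all 3 definitions of length.

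**Figure D5:**
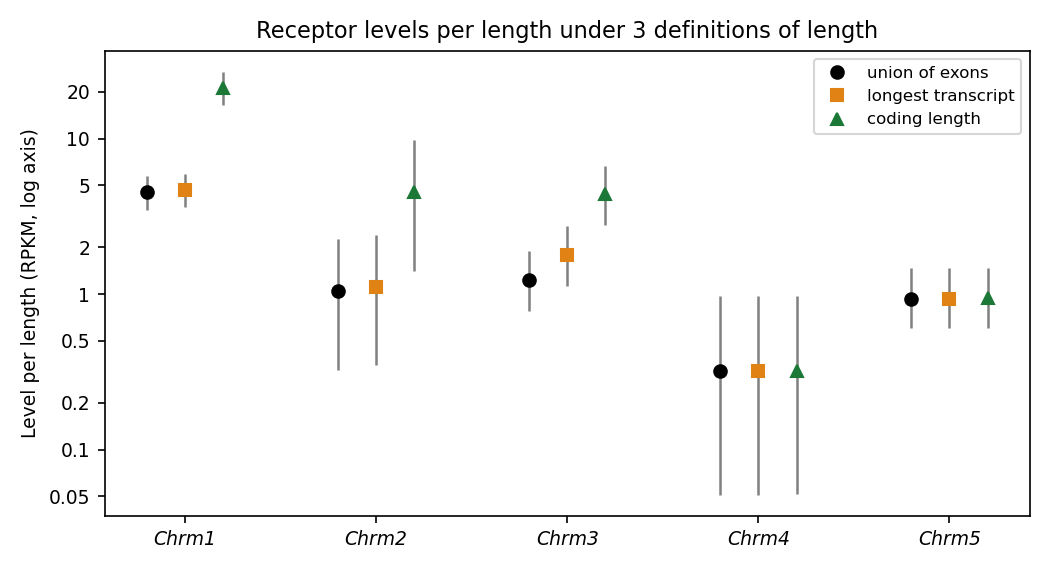
Level per length of each receptor (RPKM, log axis), as the mean over 10 libraries with grey lines from the lowest to the highest library, for 3 definitions of length. By these arithmetic means Chrm1 is highest under each, at 4.53 over the union of exons, and Chrm5 lies between Chrm4 and the others. The means of Chrm2 and Chrm3 exchange places when the coding length is used, but their mean log2 difference does not change sign. By mean log2 difference Chrm5 lies slightly above Chrm2 over the union of exons (0.15) and the longest transcript (0.06).

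Against the nicotinic receptor genes of the same libraries the muscarinic family was scarce. The summed level per length was 8.06 ± 1.19 RPKM for the 5 muscarinic genes and 560 ± 108 RPKM for the 16 nicotinic genes (SD, n = 10 libraries), a ratio of 39.9 to 100.7 within libraries. The ratio was 91.5 to 100.7 in replicates 1 and 5 and 39.9 to 71.4 in the other libraries. The muscarinic sum spanned 6.26 RPKM (left replicate 1) to 9.76 RPKM (left replicate 4), and the nicotinic sum 379 RPKM (right replicate 3) to 679 RPKM (right replicate 1). Of these 16 genes 10 were tested and 0 passed, with 8 log2 fold changes above 0 and a median of 0.08. The most abundant, Chrna3 and Chrnb4, subunits of a nicotinic receptor typical of this nucleus, stood at 1039 ± 137 and 1010 ± 169 CPM in left libraries and at 973 ± 284 and 971 ± 304 CPM in right ones.

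Genes that act downstream of the receptors were measured at levels far above them, and 0 passed between the sides. Of 20 Gq pathway genes 17 were tested and 8 of these had a log2 fold change above 0, with a median of -0.01, the same as over all tested genes. The most abundant were Prkcb, a protein kinase C activated by this pathway, with 1572 ± 125 CPM in left and 1518 ± 210 CPM in right libraries, and Plcb4, a phospholipase C, at 431 ± 292 and 418 ± 298 CPM. Of 20 Gi pathway genes 20 were tested and 9 lay above 0, with a median of -0.03. Gnao1, the α subunit of Go, stood at 2898 ± 117 and 2862 ± 338 CPM, and the β subunit gene Gnb1 at 1422 ± 397 and 1414 ± 265 CPM.

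Regulators of receptor signalling and genes of acetylcholine supply also gave 0 calls. Of 17 tested kinases, arrestins, RGS proteins and chaperones of G proteins 7 lay above 0, with a median of -0.01. Rgs8 and Rgs17, which speed the return of G proteins to rest, stood at 427.5 ± 63.2 and 188 ± 14.96 CPM in left libraries, with 431.5 ± 59.5 and 198 ± 41.4 CPM in right libraries. Of 7 tested genes of acetylcholine supply and breakdown 3 lay above 0, with a median of -0.02. Slc18a3, which loads acetylcholine into vesicles, had 399 ± 160 CPM in left and 427 ± 154 CPM in right libraries. Slc5a7, which takes up choline, had 228 ± 45.1 and 214 ± 65.1 CPM.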

How the data were processed

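The deposited values are raw read counts per gene, 1 file per library, not normalised by the authors. The submitters' processing notes name STAR 2.0.0e, HTSeq and mm10, with no settings. Of the rows, 6 name no gene (5 summary lines and a row named unknown) and were left out. Among the uniquely aligned reads, 13.6% to 18.9% were assigned to no feature. Whether introns were counted is not stated, so these reads need not lie outside genes.

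The left and right libraries (groups and replicate numbers from the titles) were compared in R 4.3.3 by a two-sided quasi-likelihood test (edgeR 4.0.16). Library sizes were scaled by TMM, low genes were removed by filterByExpr (minimum count 10), and a robust model held side alone, with Benjamini-Hochberg adjusted p under 0.05 over 16250 genes as the threshold. Gene counts of 42488448 to 67942836 per library gave counting errors from 2.34% of the mean level for Chrm1 to 19.6% for Chrm4. log2 CPM has a prior count of 2 and levels per length a prior of 0.5 reads. Alternatives were median-of-ratios and upper-quartile factors, other filters, DESeq2 1.42.0, limma-voom (limma 3.58.1), a covariate for the glial score, a block for the replicate number, and subsets of libraries. Coordinates and lengths came from GENCODE M21, and upstream sequences from RefSeq. Figures were drawn with matplotlib 3.10.9.

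The receptors, the gene lists and the tests were chosen with earlier results of these data known. The text names all 5 receptors, the 2 tested genes with the highest mean in each list of related genes and any called member, and the 3 nearest patterns of each receptor with a mean of at least 1 CPM. Markers were used as summed lists. Chrm1 had no entry in the promoter table, and 1 gene of the list of regulators is not analysed here.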

Additional observations from a re-analysis of the deposited data

Results flagged for a closer look

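Chrm5 stood at 2.35 CPM in right replicate 3, apart from the other 4 right libraries at 0.954 to 1.16 CPM. The gap to the next library was 0.852 of the range of that side, above Dixon's 95% critical value for 5 samples. It was the only such value among 14 groups checked (each receptor, their summed level and the Gq-coupled share, on each side), and chance alone gives 1 in about 20 groups. The exact 95% Poisson interval of that library, 1.99 to 2.75 CPM, covers counting error only and leaves out variation between libraries.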

How the results depend on the processing

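No gene passed between the sides under any of the alternatives except replicates 1 and 5 alone, which called 1992 genes. Receptors that were near 0 changed sign with the choice of libraries. Chrm1 had a log2 fold change of 0.018 with replicates 1 and 5 summed and 0.095 in replicates 2 to 4 alone, and Chrm2 and Chrm3 had -0.17 and -0.12 in replicates 1 and 5 alone. Leaving out each library in turn gave -0.13 to 0.059 for Chrm1, -0.44 to 0.53 for Chrm2, -0.018 to 0.34 for Chrm3, -2.23 to -1.28 for Chrm4 and 0.21 to 0.62 for Chrm5. Chrm4 passed after adjustment in replicates 1 and 5 alone (-2.60). The exact permutation test of its log2 CPM (-1.58), which has no adjustment over genes, gave p = 0.0317. The cause was not tested. In limma-voom with sample weights Chrm2, Chrm3 and Chrm5 had 1.03, 0.48 and 0.59 (adjusted p = 0.285 for each). With each replicate number as a block 0 genes were called, 297 had an unadjusted edgeR p under 0.05, and Chrm4 had -1.72 with an unadjusted edgeR p of 0.00439 (adjusted p = 1). The numbers were not taken to pair the libraries, since the deviations of replicate 2 of both sides correlated at only 0.0962 (0.715 to 0.873 for the other numbers) and not every library correlated best with its own number. Replicates 2 to 5 shared a sequencing lane between the sides and replicate 1 did not, and the labels do not say that a number marks a shared animal or preparation.

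Levels per length within one side could not pass, since the smallest exact p with 5 libraries is 0.0625. On the left, mean log2 differences were 1.85 for Chrm1 over Chrm3, 0.28 for Chrm3 over Chrm5 and 2.70 for Chrm2 over Chrm4. On the right they were 1.995, 0.51 and 0.96, and Chrm5 over Chrm2 was -0.012. Chrm5 over Chrm2 was -0.065 with replicates 1 and 5 summed and -1.96 by coding length. With those replicates summed or by coding length, Chrm3 over Chrm2 was not called either (0.37 and 0.26). A filter at a mean of 1 CPM removed Chrm4 and gave it no value. Depth limits Chrm4, where 4 reads in left replicate 1 allow 0.0179 to 0.168 CPM.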

Other observations

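Some effectors of the 2 receptor classes also differed between libraries of the same side. Plcb4 had 150.2 to 169.5 CPM in the 4 libraries numbered 1 and 5 and 322 to 849.5 CPM in the remaining 6, the direction seen for Chrm2. Gnb1 ran the other way, with 1646 to 1856 CPM in those 4 libraries against 989.5 to 1417 CPM. Summed over 20 genes each, the Gq pathway ranged 1.76-fold over the 10 libraries and the Gi pathway 1.11-fold.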
